A study of Mus musculus with 9 samples.

Results

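The 8 genes described here encode subunits of large-pore membrane channels: the connexins Gja1, Gja4, Gja5, Gjb2, Gjb6 and Gjc1, and the pannexins Panx1 and Panx2. They were taken by gene symbol from a table of 18571 genes, and each symbol matched 1 row. The measured cells were microglia, immune cells that reside in the brain, from C57BL/6J mice aged 9 months. Cells from cortex and hippocampus were captured with an antibody to CD45, a surface protein that immune cells of the blood also carry, and their poly-A RNA was sequenced. Each of 3 genotypes had 3 libraries. The first was wild type (WT). The second was APP/PS1, a strain whose transgenes cause amyloid deposits, used as a model of Alzheimer's disease. The third, APP/PS1:Cx3cr1-CreER:Cx43-flox/flox, is called Cx43 cKO here and was made to delete connexin 43, the product of Gja1, in microglia. CreER is a recombinase that works only with tamoxifen, and here it is made in cells that use the Cx3cr1 locus, which include some other myeloid cells. Tamoxifen was given by mouth for 5 days at 0.1 mg/g at 8 months of age in all 3 groups, whereas the WT and APP/PS1 genotypes are listed without Cre or floxed alleles. The labels do not say how many mice made up a library, so p-values measure only the spread between these libraries, which may be technical.

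Connexins assemble as hexamers called hemichannels, and hemichannels of neighbouring cells dock to form gap junctions that pass ions and small molecules. Pannexins form related channels that are known for releasing ATP rather than for joining cells. In brain, Gja1 (connexin 43) and Gjb6 (connexin 30) are the main connexins of astrocytes. Gja4 (connexin 37) and Gja5 (connexin 40) are known from arterial vessel walls, Gjc1 (connexin 45) from smooth muscle and other mural cells, and Gjb2 (connexin 26) from the meninges and astrocytes. Panx1 is broadly expressed, and Panx2 is known mainly from neurons.

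Gja1 lies at chr10:56377330-56402513 (plus strand), Gja4 at chr4:127311421-127314039 (minus), Gja5 at chr3:96904693-97077416 (plus) and Gjc1 at chr11:102799579-102819700 (minus). Gjb2 at chr14:57098600-57104702 and Gjb6 at chr14:57123303-57133611 (both minus) are separated by 18600 bases. Panx1 lies at chr9:15002128-15045478 (minus) and Panx2 at chr15:89059734-89073567 (plus). These are GENCODE M21 gene bounds on GRCm38. In the longest coding transcript, 5 of the 8 genes had their whole coding sequence in 1 exon, among them Gja1, with 1146 coding bases in 1 of its 2 exons. The labels do not name the floxed exon, and the deposited values are per gene. Reads from an undeleted part of Gja1 therefore cannot be told apart from reads of intact transcripts.

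Promoter windows from RefSeq (GRCm38.p6, 250 bases before to 50 after the annotated start) matched 6 of the 8 genes, all but Gjc1 and Panx2. The windows of Gja1, Gjb6 and Gja4 are printed because these 3 genes had the lowest adjusted p-values for Cx43 cKO against APP/PS1. Capitals mark matches, on either strand, to any of 4 motifs. The GC box was searched with the letters GGGCGG. The TATA box is a core promoter element searched here with the letters TATAAA. For the CCAAT box the letters of its name were used. The AP-1 site, which binds Fos and Jun proteins, was searched with the letters TGANTCA.
Gja1, chr10:56377050-56377349, plus strand: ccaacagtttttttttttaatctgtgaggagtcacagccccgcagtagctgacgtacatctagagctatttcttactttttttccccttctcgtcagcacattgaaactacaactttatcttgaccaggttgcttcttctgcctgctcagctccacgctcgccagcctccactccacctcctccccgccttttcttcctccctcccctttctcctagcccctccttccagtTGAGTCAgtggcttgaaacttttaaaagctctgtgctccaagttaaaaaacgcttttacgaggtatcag
Gjb6, chr14:57133562-57133861, minus strand: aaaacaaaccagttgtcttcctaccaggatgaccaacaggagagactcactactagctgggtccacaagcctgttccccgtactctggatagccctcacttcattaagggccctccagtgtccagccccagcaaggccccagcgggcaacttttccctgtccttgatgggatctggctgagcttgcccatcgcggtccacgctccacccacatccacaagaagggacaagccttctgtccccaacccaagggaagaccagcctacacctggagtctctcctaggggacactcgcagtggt
Gja4, chr4:127313990-127314289, minus strand: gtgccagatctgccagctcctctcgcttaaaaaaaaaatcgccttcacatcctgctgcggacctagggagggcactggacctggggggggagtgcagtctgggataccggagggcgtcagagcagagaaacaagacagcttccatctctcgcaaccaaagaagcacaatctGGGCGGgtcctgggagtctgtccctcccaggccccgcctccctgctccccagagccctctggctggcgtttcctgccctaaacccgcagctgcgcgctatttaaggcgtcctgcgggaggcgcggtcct
The Gja1 window held 1 AP-1 match, TGAGTCA, whose first base was at position -19 from the annotated start, and no match to the other 3 motifs. The Gja4 window held 1 GC box, at position -79, and the Gjb6 window held no match to these letters. Of 32851 windows of the same length, 7.81% held an AP-1 match, 35.7% a GC box, 37.4% a CCAAT box and 13.6% a TATA box. No motif match was shared by these 3 windows.

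The libraries were of like depth, at 18907681 to 19565354 estimated counts. The 12 microglial markers checked the labelled cell type: their mean sum was 20531 CPM (counts scaled to a common library size) for WT, 25788 CPM for APP/PS1 and 22164 CPM for Cx43 cKO, and all 12 passed the filter on low counts. These markers were highest in APP/PS1, as Gja1, Gjb6 and Panx1 were, with 8 of 12 higher and 3 lower from WT to APP/PS1 and 2 higher and 8 lower from there to Cx43 cKO. From WT to Cx43 cKO 8 were higher and 4 lower. Over all tested genes, 59.0%, 55.0% and 47.7% were called in these 3 comparisons, at the threshold given below. The part of the microglial markers in the changes of the 8 genes was not tested. Markers of other cells were present too. The 15 astrocyte markers summed to 804 to 1035 CPM, the 13 endothelial markers to 885.5 to 1016 CPM and the 12 neutrophil and monocyte markers to 949 to 9345 CPM. The sex-linked gene Ddx3y had 4137 to 4538 counts in WT and APP/PS1 libraries and at most 2 in Cx43 cKO libraries, so sex and Cx43 genotype cannot be told apart. Cx3cr1 itself was at a mean of 1214 CPM in Cx43 cKO, below the 2231 CPM of APP/PS1.

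Of the 8 genes, 7 passed the filter, and Gja5 was too low to judge. CPM values here are scaled between libraries with edgeR's TMM factors. Changes are edgeR quasi-likelihood log2 changes from a fit over all 14696 tested genes, with Benjamini-Hochberg adjusted p-values and a threshold of 0.05. From WT to APP/PS1, 3 of the 8 genes rose (Gja1, Gjb6 and Panx1) and 2 fell (Gja4 and Gjc1), while 59.0% of all tested genes passed, 26.9% as higher and 32.0% as lower. From APP/PS1 to Cx43 cKO, 4 fell (Gja1, Gjb6, Gja4 and Gjc1) and none rose, where 55.0% of all tested genes passed, 27.3% as higher and 27.7% as lower. From WT to Cx43 cKO, 5 fell (Gja1, Gjb6, Gja4, Gjc1 and Gjb2) and none rose, where 47.7% passed, 24.7% as higher and 23.0% as lower. The libraries of the groups did not overlap for 5 of the 7 tested members in each comparison. From WT to APP/PS1, 2 of those 5 were lower, beside 63.5% of all tested genes without overlap and 34.6% without overlap and lower. From APP/PS1 to Cx43 cKO all 5 were lower (59.7% and 30.3% of all tested genes), as were all 5 from WT to Cx43 cKO (54.6% and 26.7%). The median log2 change of the 7 tested genes was 0.24, -0.42 and -0.46 in these 3 comparisons, beside -0.04, -0.01 and -0.01 over all tested genes. Each pair of comparisons shares the libraries of 1 group, so their changes are not independent of each other.

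**Figure D1:**
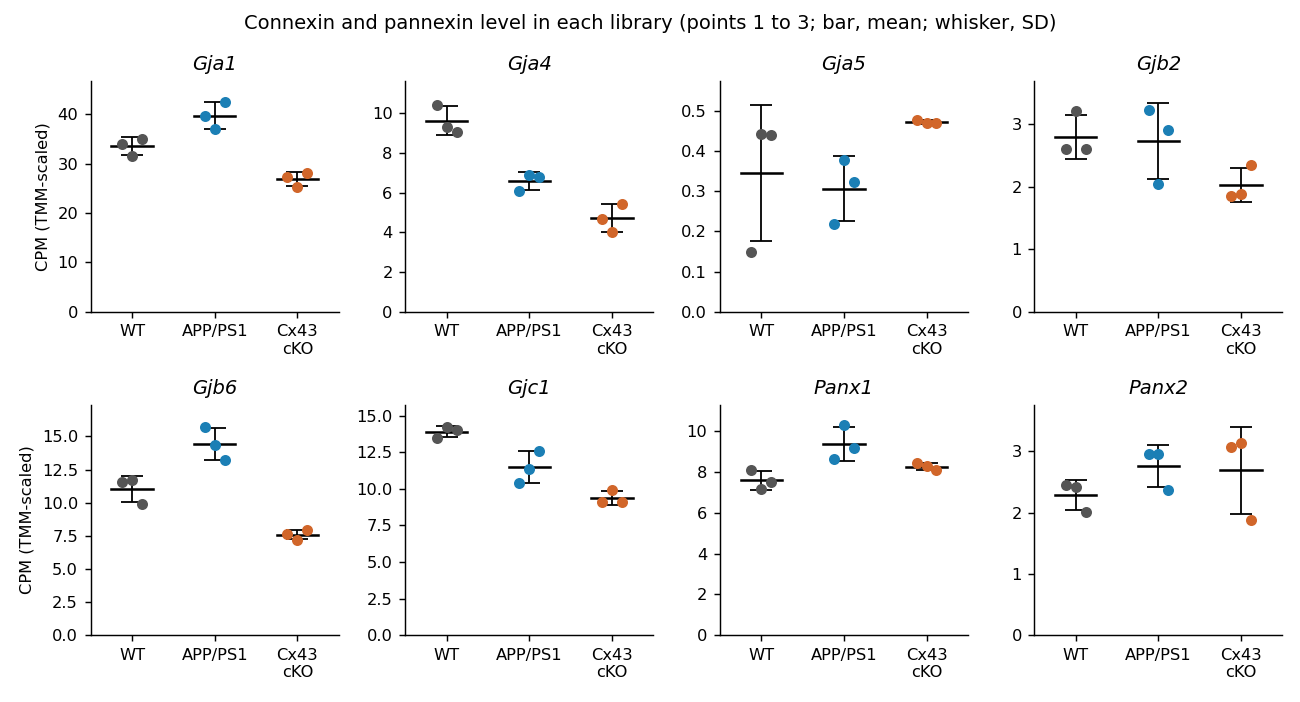
Level of each connexin and pannexin gene in CPM (TMM-scaled, axes from 0) in the 9 libraries; points are libraries 1 to 3 of each group, bars are means and whiskers the SD. Gja1 and Gjb6 were highest in the 3 APP/PS1 libraries, Gja4 and Gjc1 were highest in the 3 WT libraries, and Gja5 stayed below 0.5 CPM.

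Gja1, the targeted gene, was 34.05, 31.6 and 35.1 CPM in the WT libraries, 39.7, 37.0 and 42.5 in those of APP/PS1 and 27.2, 25.3 and 28.1 in those of Cx43 cKO. The 3 groups did not overlap, with Cx43 cKO lowest and APP/PS1 highest. Gja1 in Cx43 cKO was 0.677-fold of its APP/PS1 level (95% interval 0.621 to 0.737, edgeR adjusted p 7.95e-09) and 0.800-fold of its WT level (0.734 to 0.872, edgeR adjusted p 7.62e-05). Gja1 was therefore lower in, but not absent from, each Cx43 cKO library. In APP/PS1 it was 1.18-fold of WT (1.09 to 1.28, edgeR adjusted p 0.000662), but on deposited TPM, which moved the median of all genes to -0.35 on the log2 scale, its value was -0.14 and did not pass (limma adjusted p 0.0506). Relative to that median the TPM change was 0.20. Without TMM scaling, on library totals alone, the log2 change of 0.105 did not pass either (edgeR adjusted p 0.108), nor on FPKM with a pseudocount of 1 (0.097, limma adjusted p 0.167).

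Gjb6, the other main astrocyte connexin, had the lowest level in Cx43 cKO too. Its values were 11.6, 11.7 and 9.94 CPM in the WT libraries, 15.7, 14.3 and 13.3 in those of APP/PS1 and 7.68, 7.22 and 7.92 in those of Cx43 cKO. No groups overlapped. In Cx43 cKO it was 0.528-fold of APP/PS1 (95% interval 0.463 to 0.602, edgeR adjusted p 2.99e-09) and 0.688-fold of WT (0.600 to 0.788, edgeR adjusted p 3.38e-05). In APP/PS1 it was 1.30-fold of WT (1.15 to 1.47, edgeR adjusted p 0.000407), a rise that on TPM became a log2 value of -0.002 (limma adjusted p 0.977), or 0.35 relative to the TPM median of all genes. The log2 change from APP/PS1 to Cx43 cKO for Gjb6 less that for Gja1, the targeted gene, was -0.36 (two-sided exact permutation p 0.1, the smallest that 3 against 3 libraries allow). This comparison was chosen after the values were seen. The ratio of Gja1 to Gjb6 was 2.53, 2.59 and 3.20 in the APP/PS1 libraries and 3.55, 3.51 and 3.55 in those of Cx43 cKO, without overlap. The WT ratios of 2.94, 2.71 and 3.53 overlapped both. By same-numbered libraries, the APP/PS1 ratio was below WT in 3 of 3 pairs and the Cx43 cKO ratio above WT in 3 of 3 (exact paired permutation p 0.25 each, the smallest that 3 pairs allow).

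Markers of astrocytes moved with these genes in 2 of the 3 comparisons. Their summed level was 844 to 854 CPM in the WT libraries, 1004 to 1035 in those of APP/PS1 and 804 to 812 in those of Cx43 cKO, with none of the 15 markers at 0. From APP/PS1 to Cx43 cKO, 14 of the 15 markers fell and none rose. From WT to APP/PS1, 10 rose and 1 fell, with Gfap, an intermediate filament of reactive astrocytes, at a log2 change of 2.58 (edgeR adjusted p 1.89e-21) and Aqp4, an astrocyte water channel, at 1.13 (edgeR adjusted p 1.68e-11). From WT to Cx43 cKO, where Gja1 and Gjb6 fell, the list was mixed, with 4 higher, 5 lower and a median log2 change of -0.09. Gfap was higher there by 2.66 (edgeR adjusted p 1.21e-21) and Aqp4 by 0.66 (edgeR adjusted p 1.24e-06). Fgfr3, also on the list, was lower there, at a log2 change of -0.54 (edgeR adjusted p 3.37e-07). Among all tested genes 55.0% were called from APP/PS1 to Cx43 cKO, 59.0% from WT to APP/PS1 and 47.7% from WT to Cx43 cKO. Fewer cells of a type and less RNA per cell cannot be told apart in such bulk libraries. Per 1000 CPM of the astrocyte markers, Gja1 had a mean of 39.6 ± 1.94 for WT, 39.1 ± 2.09 for APP/PS1 and 33.3 ± 1.62 for Cx43 cKO (SD, n = 3). The WT and APP/PS1 libraries overlapped on this scale (difference -1.20%, exact permutation p 0.7, adjusted 0.7), with 0.665% without WT library 3 and 1.63% without APP/PS1 library 2. By same-numbered libraries APP/PS1 was lower in 3 of 3 pairs (exact paired permutation p 0.25). The 3 Cx43 cKO libraries all lay below both groups, with a difference from APP/PS1 of -14.9% (exact permutation p 0.1, adjusted 0.133 over 12 such comparisons). Gjb6 on the same scale had a mean of 13.1 ± 1.23 for WT, 14.2 ± 1.39 for APP/PS1 and 9.42 ± 0.403 for Cx43 cKO (SD, n = 3). From WT to APP/PS1 the libraries overlapped (difference 8.88%, exact permutation p 0.4, adjusted 0.48), with APP/PS1 higher in 3 of 3 same-numbered pairs (exact paired permutation p 0.25). Leaving out 1 library gave differences of 3.29% to 14.3%. The Cx43 cKO libraries were again all lower, with a difference from APP/PS1 of -33.7% (exact permutation p 0.1, adjusted 0.133). The part of astrocyte RNA in these changes was not otherwise tested. The 7 ependymal and choroid plexus markers were also highest in APP/PS1, with mean sums of 430.5 CPM for WT, 1147 CPM for APP/PS1 and 587 CPM for Cx43 cKO. Of the 4 that passed the filter, 3 rose and none fell from WT to APP/PS1, 4 fell from there to Cx43 cKO, and 2 rose from WT to Cx43 cKO. Most of the sum was Ttr, the transthyretin gene of choroid plexus, with log2 changes of 1.44 (edgeR adjusted p 2.75e-24) and -0.98 (edgeR adjusted p 7.97e-21) over the first 2 comparisons. Tmem212 was at 0 in Cx43 cKO. Among all tested genes 26.9% rose from WT to APP/PS1, 27.7% fell from there to Cx43 cKO and 24.7% rose from WT to Cx43 cKO. The part of ependymal and choroid plexus cells was not tested.

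**Figure D2:**
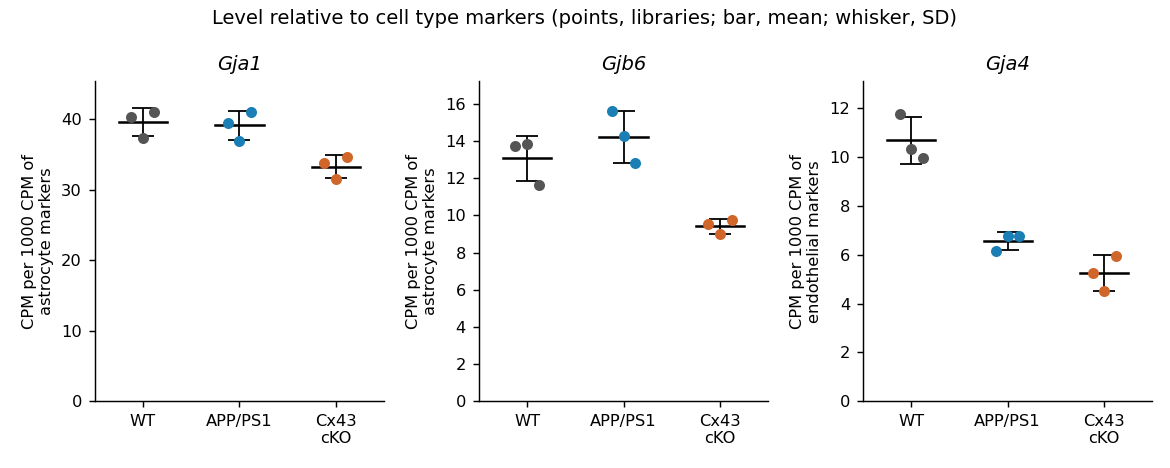
Gja1 and Gjb6 per 1000 CPM of 15 astrocyte markers and Gja4 per 1000 CPM of 13 endothelial markers, axes from 0; points are libraries, bars means and whiskers the SD. Gja1 overlapped between WT and APP/PS1 on this scale, while the Cx43 cKO libraries lay below both for all 3 genes.

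Gja4, a connexin of arterial endothelium, fell in each step from WT to APP/PS1 to Cx43 cKO. It measured 10.4, 9.31 and 9.06 CPM in the WT libraries, 6.06, 6.89 and 6.79 in those of APP/PS1 and 4.66, 4.03 and 5.42 in those of Cx43 cKO. The groups did not overlap. APP/PS1 was 0.686-fold of WT (95% interval 0.590 to 0.797, edgeR adjusted p 7.68e-05), and Cx43 cKO was 0.715-fold of APP/PS1 (0.602 to 0.849, edgeR adjusted p 0.00133). Cx43 cKO was 0.490-fold of WT (0.418 to 0.575, edgeR adjusted p 1.71e-08), the lowest fold among the 7 tested genes in the 3 comparisons. Per 1000 CPM of endothelial markers Gja4 had a mean of 10.7 ± 0.967 for WT, 6.56 ± 0.356 for APP/PS1 and 5.24 ± 0.730 for Cx43 cKO (SD, n = 3), again without overlap. The difference between APP/PS1 and WT was -38.5% on this scale (exact permutation p 0.1, adjusted 0.133). The summed endothelial markers were 887 to 912 CPM in the WT libraries, 987 to 1016 in those of APP/PS1 and 885.5 to 910.5 in those of Cx43 cKO, with none at 0. Slc2a1, the glucose transporter of the blood-brain barrier, rose from 284 to 409.8 CPM from WT to APP/PS1 (log2 change 0.53, edgeR adjusted p 1.93e-14), by more than the sum did. The other 12 markers summed to 617 CPM for WT, 594 CPM for APP/PS1 and 508 CPM for Cx43 cKO. Relative to those 12, a list chosen after the values were seen, the Gja4 difference was -28.8% between APP/PS1 and WT (exact permutation p 0.1) and -40.6% between Cx43 cKO and WT (exact permutation p 0.1). For Cx43 cKO relative to APP/PS1 the value was -16.5%, with overlapping libraries (exact permutation p 0.2).

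Of the 13 endothelial markers, 6 fell and 2 rose from WT to APP/PS1, 10 fell and 1 rose from APP/PS1 to Cx43 cKO, and 11 fell and 1 rose from WT to Cx43 cKO. The 5 arterial endothelial markers summed to 64.4 CPM for WT, 58.0 CPM for APP/PS1 and 55.2 CPM for Cx43 cKO, the same order as Gja4, with none at 0. Single arterial markers moved in both directions, with 2 higher and 3 lower, 1 higher and 3 lower, and 2 higher and 2 lower in the 3 comparisons. Beside both lists, 59.0%, 55.0% and 47.7% of all tested genes were called, 32.0%, 27.7% and 23.0% as lower. Gkn3, a gene used as an arterial marker, rose from WT to APP/PS1 (log2 change 2.24, edgeR adjusted p 2.16e-10), where Gja4 fell, and fell from APP/PS1 to Cx43 cKO (-1.29, edgeR adjusted p 6.76e-07). Bmx, a kinase of arterial endothelium, rose from APP/PS1 to Cx43 cKO (log2 change 1.26, edgeR adjusted p 3.29e-10), while Sema3g, a semaphorin, fell (-0.80, edgeR adjusted p 2.29e-08). The part of endothelial RNA in the Gja4 changes was not otherwise tested.

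Gjc1, a connexin of mural cells, followed the same order of groups. It measured 13.48, 14.24 and 14.01 CPM in the WT libraries, 10.4, 11.4 and 12.6 in those of APP/PS1 and 9.11, 9.94 and 9.07 in those of Cx43 cKO, without overlap. Its log2 change was -0.28 from WT to APP/PS1 (SE 0.08, edgeR adjusted p 0.00484), although DESeq2 put that just outside the threshold (adjusted p 0.0517). For Cx43 cKO it was -0.57 relative to WT (SE 0.08, edgeR adjusted p 2.89e-06) and -0.29 relative to APP/PS1 (SE 0.09, edgeR adjusted p 0.00684). The last of these did not pass on TPM (-0.08, limma adjusted p 0.378) or without APP/PS1 library 3 (-0.22, edgeR adjusted p 0.0602). The 12 mural cell markers, which include the contractile protein genes Acta2 and Tagln, summed to 1205 to 1239 CPM in the WT libraries, 974.9 to 1014 in those of APP/PS1 and 750 to 764 in those of Cx43 cKO, with none at 0. From WT to APP/PS1 10 of the 12 fell and 1 rose, and from APP/PS1 to Cx43 cKO 9 fell and none rose. Gja4 and Gjc1 thus moved beside mural markers that fell in the same order of groups, and the part of those cells in either change was not tested.

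Gjb2 was low, 2.60, 3.20 and 2.60 CPM in the WT libraries, 3.22, 2.05 and 2.91 in those of APP/PS1 and 1.85, 1.88 and 2.35 in those of Cx43 cKO. The Cx43 cKO libraries were below all WT libraries, while APP/PS1 overlapped both groups. Against WT, Cx43 cKO was at a log2 change of -0.46 (95% interval -0.85 to -0.07, edgeR adjusted p 0.0461). This call was lost with DESeq2 (adjusted p 0.176), with DESeq2's size factors in edgeR (adjusted p 0.0594) and when any of 5 libraries was left out, namely WT 2 or 3, APP/PS1 3 or Cx43 cKO 1 or 2 (edgeR adjusted p 0.0511 to 0.186). Against APP/PS1 its log2 value was -0.42 (95% interval -0.82 to -0.03, edgeR adjusted p 0.0653). That value passed without APP/PS1 library 2 (-0.60, edgeR adjusted p 0.0129) or Cx43 cKO library 3 (-0.54, edgeR adjusted p 0.0442). Gjb2 is the chromosomal neighbour of Gjb6. In APP/PS1 against WT the Gjb2 value was -0.04 (95% interval -0.41 to 0.33, edgeR adjusted p 0.868). The Gjb6 change there was 0.38 (95% interval 0.21 to 0.56), so the intervals overlapped, and a difference between the 2 genes was not tested. The Gjb2 value was 0.07 without WT library 2 and 0.13 without APP/PS1 library 2, and on TPM it passed as lower (-0.31, limma adjusted p 0.0345). Meninges had been removed before dissection, per the labels. The 9 meningeal fibroblast markers summed to 103 to 146 CPM in the WT libraries, 87.8 to 98.4 in those of APP/PS1 and 64.6 to 75.8 in those of Cx43 cKO, with none at 0, and 6 of the 9 fell in Cx43 cKO against WT. In that comparison 23.0% of all tested genes fell. The part of the meningeal markers in the Gjb2 change was not tested.

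Gja5 had 3, 9 and 9 counts in the WT libraries, 4, 7 and 6 in those of APP/PS1 and 9, 9 and 9 in those of Cx43 cKO. With group means under 10 counts it is called too low to judge. The Cx43 cKO counts lay above those of APP/PS1 but equal to those of 2 WT libraries. Without the filter on low counts the log2 value for Cx43 cKO against APP/PS1 was 0.61 with a 95% interval of -0.39 to 1.62 (edgeR adjusted p 0.347). The interval holds falls and rises, so no direction could be given at this depth.

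Neither pannexin passed in either comparison of Cx43 cKO, and a difference between pannexins and connexins was not tested. Panx1, the ATP-releasing channel, was 8.09, 7.14 and 7.49 CPM in the WT libraries, 8.63, 10.3 and 9.16 in those of APP/PS1 and 8.42, 8.26 and 8.08 in those of Cx43 cKO. In APP/PS1 it was at 1.24-fold of its WT level (log2 change 0.31, 95% interval 0.11 to 0.50, edgeR adjusted p 0.00742). That call was lost without APP/PS1 library 2 (log2 change 0.23, edgeR adjusted p 0.0597), without TMM scaling (0.17, edgeR adjusted p 0.123), on FPKM with a pseudocount of 1 (0.13, limma adjusted p 0.0803) and by TPM. The TPM value had the opposite sign (-0.08, limma adjusted p 0.305) but was 0.27 relative to the TPM median of all genes. In Cx43 cKO its log2 value was -0.18 against APP/PS1 (95% interval -0.38 to 0.01, edgeR adjusted p 0.108) with all 3 libraries below those of APP/PS1, and 0.12 against WT (-0.08 to 0.32, edgeR adjusted p 0.307). A fall of Panx1 below 0.771-fold of APP/PS1 lay outside the interval. With 1 library left out, the Panx1 log2 value against APP/PS1 ran from -0.23 to -0.11, without a call. Panx2 was 2.45, 2.41 and 2.01 CPM in the WT libraries, 2.95, 2.96 and 2.37 in those of APP/PS1 and 3.07, 3.14 and 1.88 in those of Cx43 cKO. Its groups overlapped in every comparison. The log2 value for Cx43 cKO against APP/PS1 was -0.04 (95% interval -0.42 to 0.35, edgeR adjusted p 0.893), so changes from 0.746-fold to 1.28-fold lay within the interval. The 10 neuronal markers had mean sums of 139 CPM for WT, 157 CPM for APP/PS1 and 138.5 CPM for Cx43 cKO, with none at 0. From WT to APP/PS1 4 rose and 1 fell, from there to Cx43 cKO 6 fell and none rose (median log2 change -0.58), and from WT to Cx43 cKO 2 rose and 5 fell. Over all tested genes 59.0%, 55.0% and 47.7% were called in these comparisons. The part of the neuronal markers in the Panx2 values was not tested.

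**Figure D3:**
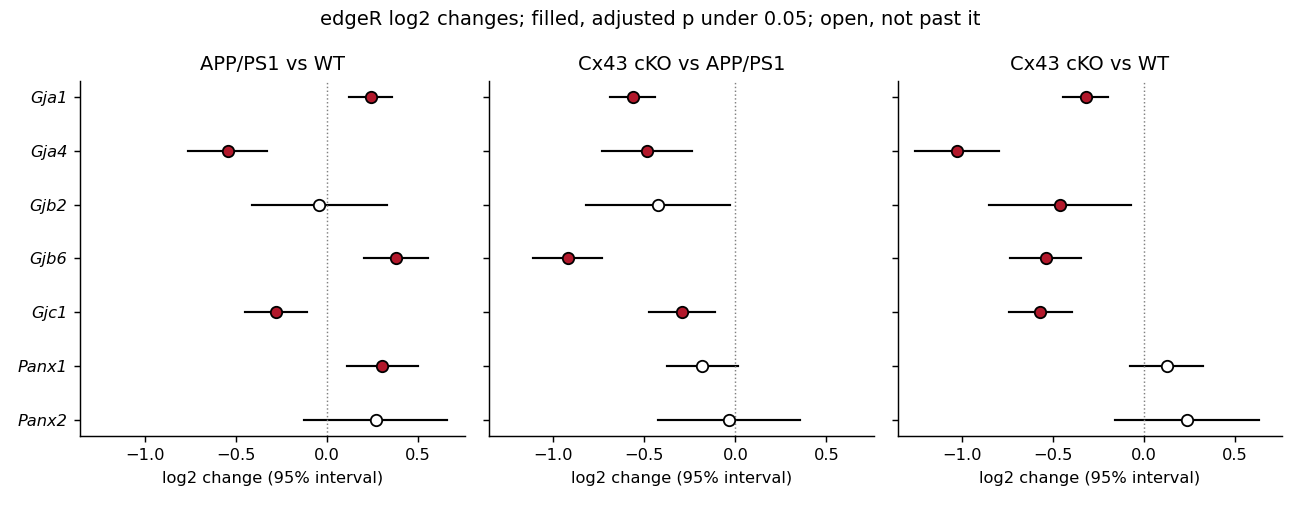
edgeR log2 changes of the 7 tested genes in the 3 comparisons, with 95% intervals as lines; filled points passed an adjusted p of 0.05 and open points did not. Gja1, Gja4, Gjb6 and Gjc1 lay below 0 in both comparisons of Cx43 cKO, and the intervals of Panx2 crossed 0 in each comparison.

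To compare levels between genes, the deposited TPM, which is scaled per transcript length, was used. In each group Gja1 had the highest mean level of the 8 genes and Gja5 the lowest. In WT the means were 25.9 TPM ± 1.39 for Gja1, 16.6 ± 0.630 for Gjc1, 13.9 ± 1.12 for Gjb6, 13.8 ± 1.07 for Gja4, 8.81 ± 0.571 for Panx1, 2.80 ± 0.341 for Gjb2, 1.61 ± 0.174 for Panx2 and 0.263 ± 0.133 for Gja5 (SD, n = 3). Only Gjb6 and Gja4 overlapped among neighbours in that order. In APP/PS1 the order was Gja1 (23.3 TPM), Gjb6 (13.9), Gjc1 (10.3), Panx1 (8.28), Gja4 (7.21), Gjb2 (2.08), Panx2 (1.48) and Gja5 (0.180), with overlap between Gjb2 and Panx2 only. In Cx43 cKO it was Gja1 (18.1 TPM), Gjc1 (9.70), Panx1 (8.37), Gjb6 (8.34), Gja4 (5.90), Gjb2 (1.77), Panx2 (1.66) and Gja5 (0.313). There Panx1 overlapped Gjb6, and Gjb2 overlapped Panx2. The place of Panx1 depended on the length used. Its deposited values imply a length of 2025 bases, 35.3% of its longest GENCODE coding transcript (5732 bases), where the other 7 genes were at 84.4% to 98.7%. Scaled to those transcripts, a choice made after seeing the data, Panx1 was at 3.11, 2.93 and 2.96 TPM in WT, APP/PS1 and Cx43 cKO, the fifth of the 8 genes in each group. TPM also moved the median of all genes, so TPM means are compared here within a group only. Gja1 ranked 5413 of the 18571 genes by mean TPM for WT, 4919 for APP/PS1 and 6284 for Cx43 cKO.

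**Figure D4:**
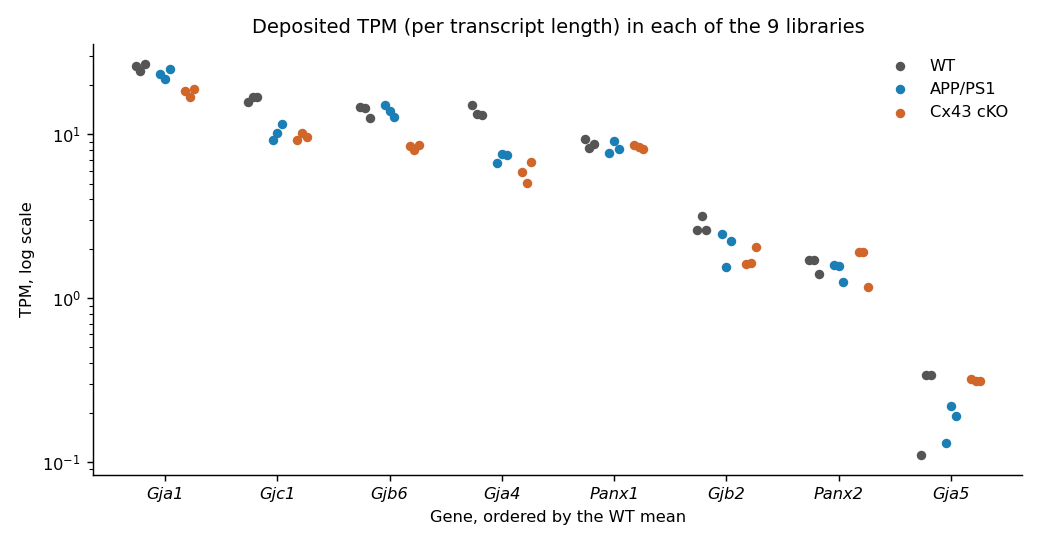
Deposited TPM of the 8 genes in each library on a log axis, ordered by the WT mean; colours are the 3 groups. Gja1 was the highest of the 8 in all 9 libraries, and Gja5 was below 0.35 TPM in all 9.

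The members were compared as patterns over the 9 libraries, by the root mean square difference of log2 CPM after each gene was centred on its own mean. A smaller value means a more similar pattern. Among the 7 tested genes Gja1 and Gjb6 were the closest pair (0.18), followed by Panx1 with Panx2 (0.19) and Gja1 with Gjb2 (0.20). Gja4 and Panx2 were the farthest apart (0.54). Among 13593 genes with a mean of at least 1 CPM, the 5 closest to Gja1 were Car4 (0.03), Asah2 (0.05), Ccl3 (0.05), Nos1 (0.06) and Enpp5 (0.06). Car4, a carbonic anhydrase, had means of 12.3, 14.6 and 9.74 CPM in WT, APP/PS1 and Cx43 cKO. The chemokine gene Ccl3 was at 1775, 2175 and 1484 CPM in the same order. Closest to Gjb6 were Ntpcr, Pdgfd and Cma1 (0.10 each), to Gja4 Sorbs2, Foxd1 and Ltbp1 (0.09 to 0.10), and to Gjc1 Cacnb1, Ptk2 and Pdk2 (0.05 to 0.07). Closest to Gjb2 were Rassf9, BC034090 and Rbms3 (0.07 to 0.10), to Panx1 Gm10509, Mrpl44 and Oxr1 (0.03 to 0.05), and to Panx2 Dnah7b, Caln1 and Brdt (0.08 to 0.11). Values were centred, so a close match says nothing of the level.

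The table held 15 further genes of the connexin and pannexin families. Of these, 12 were too low to judge, with no library above 8.5 counts. Gjc3 (connexin 29), known from oligodendrocytes, was 28.6, 28.1 and 27.96 CPM in the WT libraries, 28.2, 28.4 and 27.5 in those of APP/PS1 and 25.6, 24.0 and 25.2 in those of Cx43 cKO. It fell in Cx43 cKO, with log2 changes of -0.17 from APP/PS1 (edgeR adjusted p 0.0106) and -0.18 from WT (edgeR adjusted p 0.00697). On deposited TPM APP/PS1 (14.3, 14.3 and 13.9) and Cx43 cKO (14.9, 13.9 and 14.6) overlapped, where TPM moved the median of all genes to 0.145 (log2). Other settings are not given for Gjc3. Gjb1 (connexin 32), another oligodendrocyte connexin, had no call in the 3 comparisons, with log2 values of -0.10 to -0.04. The 10 oligodendrocyte markers summed to 2295 to 2356 CPM in the WT libraries, 2385 to 2421 in those of APP/PS1 and 2242 to 2308 in those of Cx43 cKO, with none at 0, and 6 of the 10 fell in Cx43 cKO against APP/PS1. From WT to Cx43 cKO, 1 rose and 2 fell, with a median log2 change of -0.05. Among all tested genes 27.7% fell from APP/PS1 to Cx43 cKO, and 47.7% were called from WT to Cx43 cKO. The part of the oligodendrocyte markers in the Gjc3 change was not tested.

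Genes whose products act with connexin channels had calls in both directions in the 2 comparisons of Cx43 cKO only. Of 9 connexin partners in the table, 5 fell and none rose from WT to APP/PS1, with Ccn3, a matrix protein that binds connexin 43, at -0.37 (edgeR adjusted p 0.00641), Nedd4, a ubiquitin ligase that acts on connexin 43, at -0.36 (edgeR adjusted p 1.62e-08) and Tjp1, the junction scaffold ZO-1, at -0.24 (edgeR adjusted p 5.45e-07). From APP/PS1 to Cx43 cKO, 3 fell and 2 rose. Ccn3 was at -0.87 (edgeR adjusted p 2.81e-06), Cav1, the caveolae protein, at -0.66 (edgeR adjusted p 1.38e-09) and Cnst, which aids connexin transport to the membrane, at 0.19 (edgeR adjusted p 0.00639). From WT to Cx43 cKO, 4 fell and 1 rose. The medians over the 9 were -0.16, -0.06 and -0.25, beside -0.04, -0.01 and -0.01 over all tested genes. Of all tested genes 59.0%, 55.0% and 47.7% were called in these comparisons, 32.0%, 27.7% and 23.0% as lower.

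Of 8 tested genes for other large-pore channels and the vesicular ATP transporter, 2 rose and 4 fell from WT to APP/PS1. Slc17a9, the ATP transporter, was at a log2 change of -0.47 there (edgeR adjusted p 7.44e-05) and at 0.83 from APP/PS1 to Cx43 cKO (edgeR adjusted p 7.72e-09), where 2 rose and 2 fell. The calcium homeostasis modulator gene Calhm6 was at -1.04 (edgeR adjusted p 1.34e-05) in the latter. Its relative Calhm5 was at -1.10 there (edgeR adjusted p 0.0171), from low means of 0.793 (APP/PS1) and 0.366 CPM (Cx43 cKO). The lower of these means was below the 0.472 CPM of Gja5 in Cx43 cKO, a gene called too low to judge. The size of the Calhm5 change is therefore uncertain. From WT to Cx43 cKO 3 rose and 2 fell, with Calhm6 at -0.86 (edgeR adjusted p 0.000213) and Lrrc8d, a subunit of volume-regulated anion channels, at 0.39 (edgeR adjusted p 3.50e-09). Of 11 ATP receptors and ectonucleotidases, which sense or remove extracellular nucleotides, 2 rose and 5 fell from WT to APP/PS1, 3 rose and 4 fell from APP/PS1 to Cx43 cKO, and 4 rose and 6 fell from WT to Cx43 cKO. P2ry12, the ADP receptor of resting microglia, was 1597 CPM in the WT libraries, 2352 in those of APP/PS1 and 1808 in those of Cx43 cKO. Its log2 change was 0.56 from WT to APP/PS1 (edgeR adjusted p 7.83e-08) and -0.38 from there to Cx43 cKO (edgeR adjusted p 4.94e-06). P2ry2, a receptor for ATP and UTP, had log2 changes of -1.23 (edgeR adjusted p 8.4e-10) and 0.92 (edgeR adjusted p 4.08e-07) over the same 2 steps. Nt5e, the ectonucleotidase CD73 that makes adenosine, rose from APP/PS1 to Cx43 cKO by 1.05 (edgeR adjusted p 1.41e-07). The median log2 changes were -0.01, 0.06 and -0.10 for the channel list and -0.15, -0.07 and -0.21 for the receptor list in the 3 comparisons. Over all tested genes the medians were -0.04, -0.01 and -0.01, and 59.0%, 55.0% and 47.7% were called. The neutrophil and monocyte markers, at 3120 to 3154 CPM in the WT libraries, 949 to 971 in those of APP/PS1 and 9141 to 9345 in those of Cx43 cKO with none of the 12 at 0, differed between the groups beside these lists and the 8 genes, and their part was not tested.

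**Figure D5:**
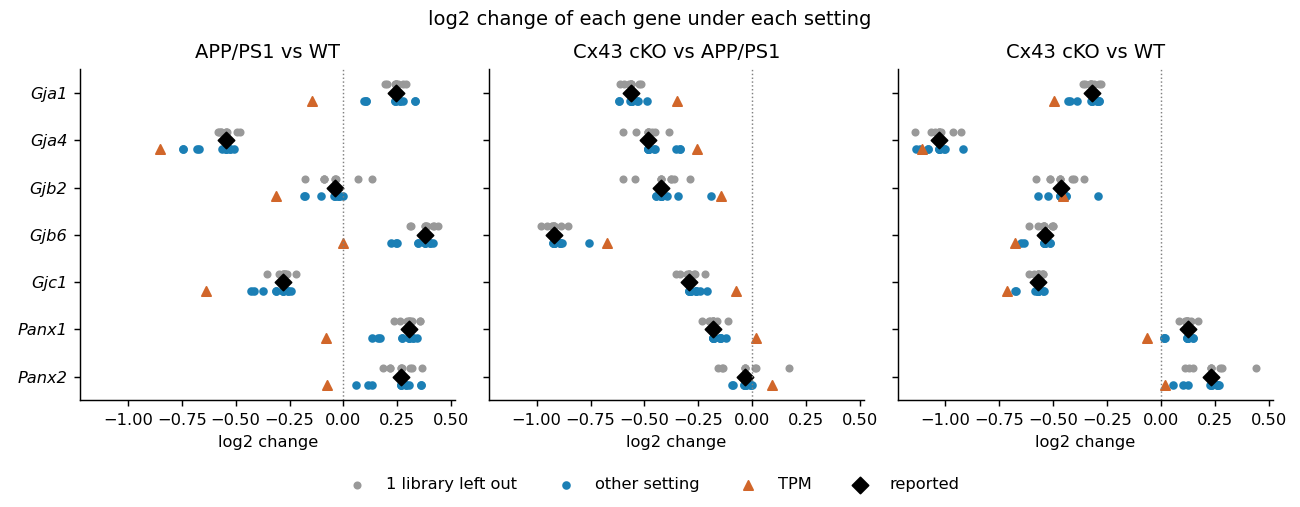
log2 change of the 7 tested genes in each comparison as reported (diamonds), with 1 library left out (grey), with TPM (triangles) and under the other settings (blue). Gja1, Gja4, Gjb6 and Gjc1 stayed below 0 in both comparisons of Cx43 cKO under every setting run, while Gja1, Gjb6, Panx1 and Panx2 crossed 0 in APP/PS1 against WT with TPM.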

How the data were processed

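Poly-A RNA from 9 libraries of 3 genotypes was sequenced with single-end reads, per the labels' protocols. Per the submitters' processing notes, HISAT, Bowtie2 and DESeq2 were used with the build GRCm38.p6; their roles and settings, and how reads shared by several genes were counted, are not given in the sources used here. Per the file headers, the deposited table has 4 columns for a library: the estimated count, normalised count, FPKM and TPM. The estimated counts deposited by the authors are unscaled. The deposited FPKM and TPM values are per transcript length, and the deposited normalised counts, a signal scaled by the authors, were not used, nor were the authors' group means.

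Estimated counts were rounded and tested with edgeR 4.0.16 in R 4.3.3 (TMM, filterByExpr, robust quasi-likelihood, all 9 libraries); plain counts had been assumed in the design. Ratios were compared by two-sided exact permutation over libraries. A gene was too low to judge if filterByExpr removed it or its mean was under 10 counts in every group. Similar patterns were the 3 nearest genes (5 for Gja1), and other list members were named from the up to 3 largest changes past the threshold per list and comparison, not all of which are printed; the choice among them was made after their values were seen. The log2 CPM patterns used an added 0.5. Members, lists and rules were chosen with earlier results of these data known. Only the edgeR fit, with and without the block, and the DESeq2 fit were run on simulated counts, in which far fewer genes changed than were called here. The outcome is not given here, and the limma, length-offset and ratio steps were not simulated. Results for 1 further gene of the family are not reported here.

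Replicate numbers come from the labels, which do not say what they share. Deviations of same-numbered libraries from their group means correlated across genes at 0.142 to 0.277 between APP/PS1 and WT, 0.104 to 0.289 between Cx43 cKO and WT, and 0.0549 to 0.233 between Cx43 cKO and APP/PS1. Libraries of different numbers correlated at -0.253 to 0.0526, below every same-numbered value. In all 18 combinations of a library and another group, the best match had the same number, also between Cx43 cKO and APP/PS1. A pairing was accepted where every value was over 0.1, which held for the first 2 comparisons. The cut therefore left the third unpaired for ratios, although its same-numbered values were the higher ones too. Fitting the numbers lowered edgeR's estimate of variation between libraries (BCV) from 3.14% to 0.988%. The alternatives were other scalings and filters, DESeq2 1.42.0, limma 3.58.1 on FPKM or TPM, length offsets, the replicate number as a block, leaving out each library, and, added after the data were seen, endothelial markers without Slc2a1, ratios paired by replicate number and transcript lengths.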

Additional observations from a re-analysis of the deposited data

How the results depend on the processing

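Over 21 alternatives, 407 of 441 log2 changes of the 7 tested genes kept their direction and their side of the threshold, 17 lost the call, 4 gained it and 13 changed sign. Under all 21, calls were kept for Gja4 in the 3 comparisons, for Gja1 and Gjb6 in both comparisons of Cx43 cKO and for Gjc1 in Cx43 cKO relative to WT. When the replicate number was fitted as a block, the same 5, 4 and 5 genes were called from WT to APP/PS1, from APP/PS1 to Cx43 cKO and from WT to Cx43 cKO, so the block changed no call among them, and 9319, 8851 and 7934 of all genes were called. The block with length offsets added Gjb2 in Cx43 cKO against APP/PS1 (-0.44, edgeR adjusted p 0.0439). For APP/PS1 relative to WT, 3 genes were called with FPKM and either pseudocount (1 or 0.1), with library totals and with TPM (the last 2 chosen after seeing the data). They were Gja4, Gjb6 and Gjc1 with FPKM and library totals, and Gja4, Gjb2 and Gjc1, all lower, with TPM. Of all 14696 tested genes, 9550, 9470, 9765 and 11349 were called in these settings. With TPM the values that changed sign in that comparison were -0.14 for Gja1, -0.002 for Gjb6, -0.080 for Panx1 and -0.076 for Panx2. In Cx43 cKO against APP/PS1 they were 0.016 for Panx1 and 0.094 for Panx2 (0.000 for Panx2 on FPKM with a pseudocount of 1), and in Cx43 cKO against WT -0.064 for Panx1. The share of higher genes among all calls was 45.7%, 49.6% and 51.9% in the 3 comparisons, 29.5%, 54.8% and 30.4% with library totals, and 14.7%, 75.3% and 19.8% with TPM. Leaving out 1 library gave -0.18 to 0.13 for Gjb2 in APP/PS1 against WT and -0.16 to 0.17 for Panx2 in Cx43 cKO against APP/PS1. It gave -3.86% to 1.63% for Gja1 relative to astrocyte markers in APP/PS1 against WT. The cause of these changes was not tested. Over all alternatives the count of all called genes ran from 7301 to 11349, 6785 to 9085 and 5616 to 9047. Gja5 had at most 9 counts in a library, so its direction could not be given at this depth.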
